A study of Mus musculus with 6 samples.

Results

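Cdhr1, the gene disrupted in the prCAD mutant mouse, and the genes that flank it on mouse chromosome 14 were followed in retinal RNA. They are Ccser2, Rgr, Lrit1, Lrit2, Cdhr1, Ghitm and Nrg3, in the order of the GRCm38.p6 gene table, 7 of 18193 named genes on the array. All 11 probe sets whose single gene symbol in the platform annotation is one of these names were read, of 45037 probe sets in all, and 0 probe sets with several symbols hold one of them. The genes were chosen by their place beside Cdhr1, with the mutant differences of Cdhr1, Lrit1, Lrit2 and Rgr from these same arrays already known. Those differences are therefore given as a description, with their standard errors and without p-values, and the count past the test's threshold supports nothing.

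The wild type group held 3 Affymetrix arrays from strain 129 mice and the mutant group 3 arrays from prCAD -/- (knockout) mice. The labels name no strain for the knockout mice. All mice were about 4 weeks old, and each array measured RNA pooled from the retinas of 3 mice. The spread between arrays is therefore a spread between pools, and alleles that came with the mutation cannot be told apart from the mutation itself. Values are on the log2 scale after RMA (robust multi-array average), a method that corrects background, equalises the distributions of the arrays and combines each probe set's probes into 1 value. A difference of 1 is a 2-fold change.

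Cdhr1 encodes photoreceptor cadherin (prCAD), a cell surface protein found at the base of the rod and cone outer segment, where new membrane discs form. Lrit1 and Lrit2 encode related membrane proteins with leucine-rich repeats and an immunoglobulin domain, and Lrit1 protein is known at photoreceptor terminals. Rgr encodes a retinal-binding opsin of the pigment epithelium and Müller glia that takes part in the visual cycle, the regeneration of the light-sensitive chromophore. Ccser2 encodes a coiled-coil protein rich in serine, Ghitm a protein of the inner mitochondrial membrane (TMBIM5) and Nrg3 a neuregulin, a ligand of the receptor ErbB4.

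The sequences before the transcription starts of Cdhr1, Lrit2, Lrit1 and Rgr are shown because the wild type and mutant values of these genes did not overlap. Each run is the 250 bases before the start in RefSeq's GRCm38.p6 annotation, 5′ to 3′ on the gene's own strand. Capitals mark TAATCC or GGATTA, the core recognised by CRX, a homeodomain factor of photoreceptors, on either strand. The windows lie at chr14:37098348-37098597 (Cdhr1, minus strand), chr14:37067779-37068028 (Lrit2, plus strand), chr14:37054580-37054829 (Lrit1, plus strand) and chr14:37049015-37049264 (Rgr, minus strand).
Cdhr1: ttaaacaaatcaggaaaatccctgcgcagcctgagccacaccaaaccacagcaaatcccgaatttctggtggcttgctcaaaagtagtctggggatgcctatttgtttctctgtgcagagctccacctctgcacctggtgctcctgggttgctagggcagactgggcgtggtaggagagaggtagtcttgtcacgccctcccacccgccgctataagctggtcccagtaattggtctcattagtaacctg
Lrit2: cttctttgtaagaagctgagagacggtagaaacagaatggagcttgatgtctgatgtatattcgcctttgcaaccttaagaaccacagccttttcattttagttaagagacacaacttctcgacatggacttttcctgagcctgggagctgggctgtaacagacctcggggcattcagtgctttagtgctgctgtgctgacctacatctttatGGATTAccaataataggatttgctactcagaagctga
Lrit1: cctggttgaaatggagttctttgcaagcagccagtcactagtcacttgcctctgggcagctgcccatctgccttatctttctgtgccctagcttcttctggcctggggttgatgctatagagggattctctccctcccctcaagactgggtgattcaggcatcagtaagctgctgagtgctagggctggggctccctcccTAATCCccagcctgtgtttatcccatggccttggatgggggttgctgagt
Rgr: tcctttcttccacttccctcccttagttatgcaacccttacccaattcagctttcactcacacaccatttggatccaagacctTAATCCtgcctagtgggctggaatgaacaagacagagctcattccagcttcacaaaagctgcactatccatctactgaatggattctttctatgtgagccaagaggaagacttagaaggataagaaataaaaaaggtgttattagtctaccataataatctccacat

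Lrit2, Lrit1 and Rgr each hold 1 such core. Its first base lies 37 bases before the start in Lrit2, 50 in Lrit1 and 167 in Rgr. No core was found in this window of Cdhr1, nor in any listed window of Ccser2, Ghitm and Nrg3. Of all 32851 promoter windows of this length, 6.25% hold the core. Lrit2 has another listed start whose window overlaps the one shown and holds the same core. These matches describe the letters only. G and C made up 53.2% of the window of Cdhr1, 44% of that of Lrit2, 55.2% of that of Lrit1 and 41.2% of that of Rgr, and the median over all windows was 52.4%.

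Cdhr1 signal was high in every wild type array and near background in every mutant array. Its 1 probe set read 11.32, 11.36 and 10.98 in wild type replicates 1 to 3, and 3.94, 4.20 and 4.34 in mutant replicates 1 to 3. The lowest wild type array lay far above the highest mutant array, and the mutant values lay below 4.76, the median over all probe sets. The difference was -7.06 (SE 0.15), or 133-fold lower, the most negative of all 45037 probe sets, and background limits this fold. The labels do not say whether the probe set lies within the disrupted part of Cdhr1, so it cannot serve alone as a check of the labels. In bulk retina fewer cells of a type and less RNA per cell cannot be told apart. Rod markers were listed from textbook knowledge of the cells that express Cdhr1. Their median difference was -0.15 over 8 measured genes, with a range from -0.41 to 0.26. Within same-numbered arrays the rod median was -0.04, -0.00 and -0.32. The part of cell number in the Cdhr1 difference was not tested.

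Lrit2, Lrit1 and Rgr, the nearest neighbours on one side of Cdhr1, read higher in mutant retina. Lrit2, the next gene, read 7.01, 6.79 and 6.52 in wild type replicates 1 to 3 and 8.01, 8.19 and 7.36 in mutant replicates 1 to 3. Every mutant array was above every wild type array, and mutant replicate 3 lay closest to the wild type range. The means were 6.77 ± 0.25 and 7.85 ± 0.44 (SD, n = 3 each), a difference of 1.08 (SE 0.23), or 2.11-fold. Within same-numbered arrays Lrit2 differed by 1.00, 1.40 and 0.84.

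Lrit1, the gene after Lrit2, read 7.54, 7.33 and 7.08 in wild type replicates 1 to 3. In mutant replicates 1 to 3 it read 8.45, 8.20 and 7.93. The groups did not overlap, and replicate 1 was highest and replicate 3 lowest in both groups. The means were 7.32 ± 0.23 and 8.19 ± 0.26 (SD, n = 3 each), a difference of 0.87 (SE 0.17), or 1.83-fold. Within same-numbered arrays the difference was nearly constant, at 0.90, 0.86 and 0.85. The SE of the Lrit1 difference was 0.08 once replicate number entered the fit as a block.

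Rgr, the gene beyond Lrit1, read 6.27, 6.17 and 4.79 in wild type replicates 1 to 3 and 6.99, 7.49 and 6.96 in mutant replicates 1 to 3. All mutant arrays lay above all wild type arrays, but wild type replicate 3 was far below the other wild type arrays. The means were 5.74 ± 0.83 and 7.15 ± 0.30 (SD, n = 3 each), a difference of 1.40 (SE 0.39), or 2.64-fold. Within same-numbered arrays Rgr differed by 0.71, 1.32 and 2.17, so the size of its difference varied more between pairs than that of Lrit1. Without wild type replicate 3 the difference was 0.92, and without both replicate 3 arrays it was 1.02.

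**Figure D1:**
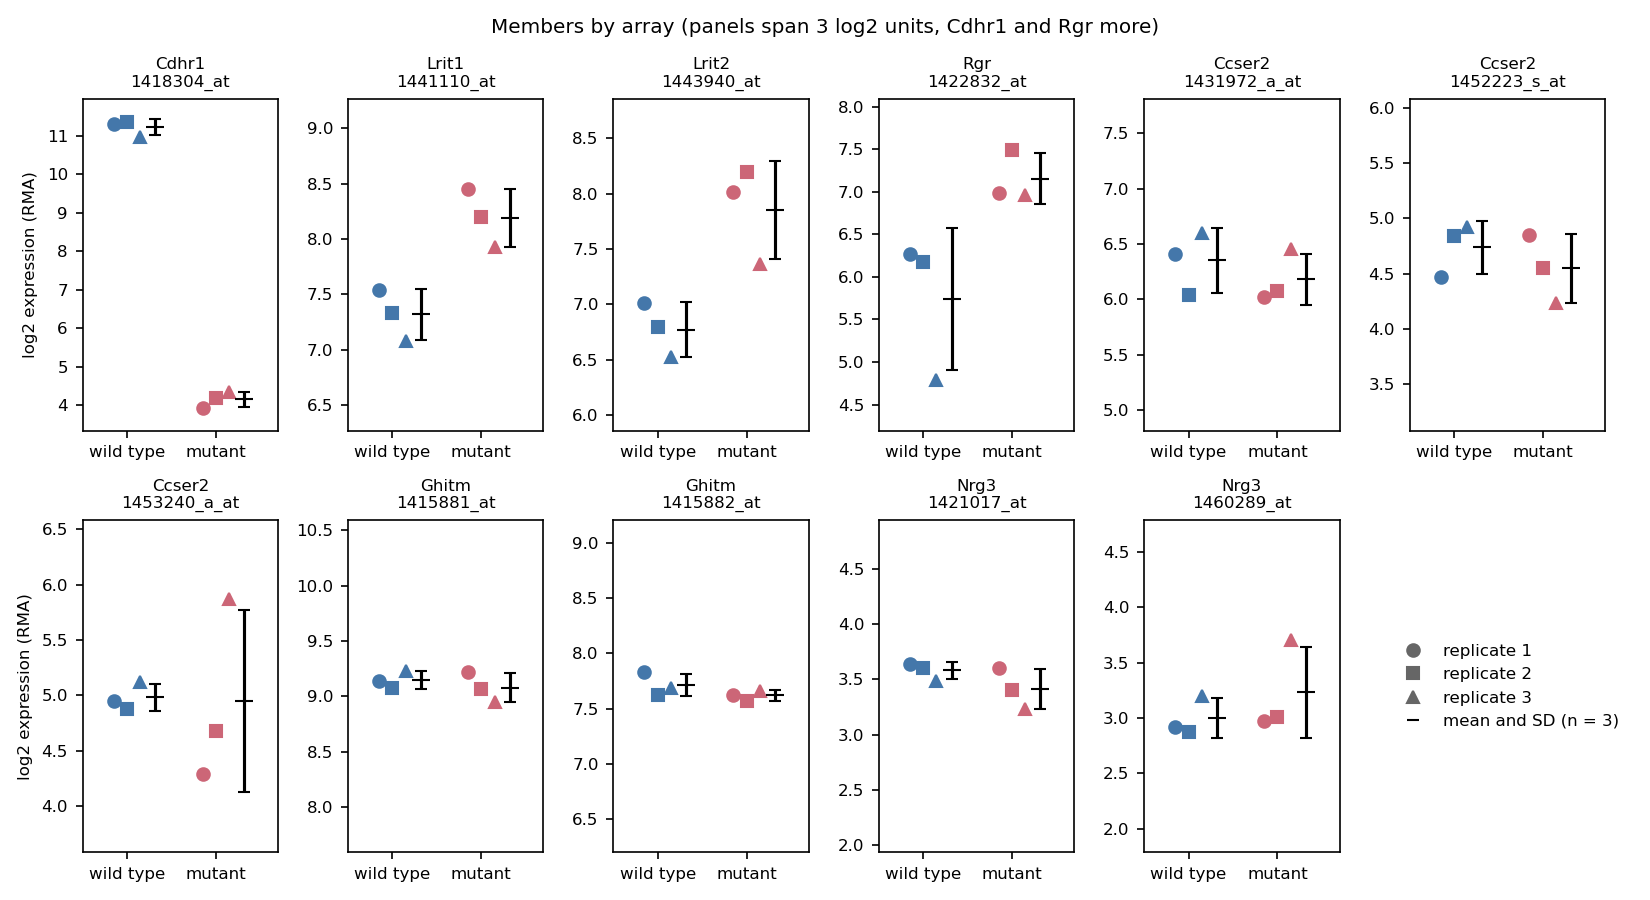
Log2 expression of each of the 11 probe sets (panels) in the wild type (blue) and mutant (red) arrays. Symbols mark replicate 1, 2 and 3, and the black bar is the mean with SD over 3 arrays. Groups are apart for Cdhr1, Lrit1, Lrit2 and Rgr, and overlap for Ccser2, Ghitm and Nrg3.

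Markers of the retinal pigment epithelium, which also expresses Rgr, were higher in the same arrays. All 14 measured markers were higher in mutant arrays, with a median difference of 0.78 and a range from 0.01 (Best1) to 2.27 (Ttr). Without wild type replicate 3, 13 of 14 were higher, with a median of 0.64. Their mean level was 5.80, 5.79 and 5.20 in wild type replicates 1 to 3 and 6.30, 6.41 and 6.14 in mutant replicates 1 to 3. In this mean wild type replicate 3 was lowest, as it was for Rgr, and the groups did not overlap. Among the markers the amino acid transporter gene Slc6a20a differed by 0.92 (SE 0.19), and the pigment cell genes Mlana by 0.88 (SE 0.21) and Tyrp1 by 0.68 (SE 0.19; 1.02 and 0.89 at its other probe sets). Within same-numbered arrays Slc6a20a differed by 0.32, 1.03 and 1.39, least in the first pair, as for Rgr. Mlana differed by 1.36, 0.39 and 0.89 and Tyrp1 by 1.22, 0.23 and 0.59, both most in the first pair. The markers therefore did not all vary between arrays as Rgr did. Of the 14 markers 0 were called by limma over all probe sets, and 3 had a mean below 4.76. An unadjusted p under 0.05 was found for 9 of them, against 3.42% of all genes. Markers of Müller glia, the other known source of Rgr, had a mean level of 8.96, 8.94 and 8.58 in wild type and 9.10, 9.02 and 8.90 in mutant replicates 1 to 3. These levels overlapped between the groups. Of the 12 measured Müller glia markers 8 were higher and 4 lower. Their median was 0.15, or 0.08 without wild type replicate 3, and the lowest difference was -0.13. Clu, the clusterin gene, differed by 0.70 (SE 0.22) and the intermediate filament gene Vim by 0.63 (SE 0.24). The Müller glia marker Aqp4 changed little, by 0.15 (SE 0.10) with overlapping groups. Its dimmer probe sets were lower in mutant arrays, with differences of -0.56 (SE 0.75) and -0.09 (SE 0.18). The part of these markers in the Rgr difference was not tested.

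**Figure D2:**
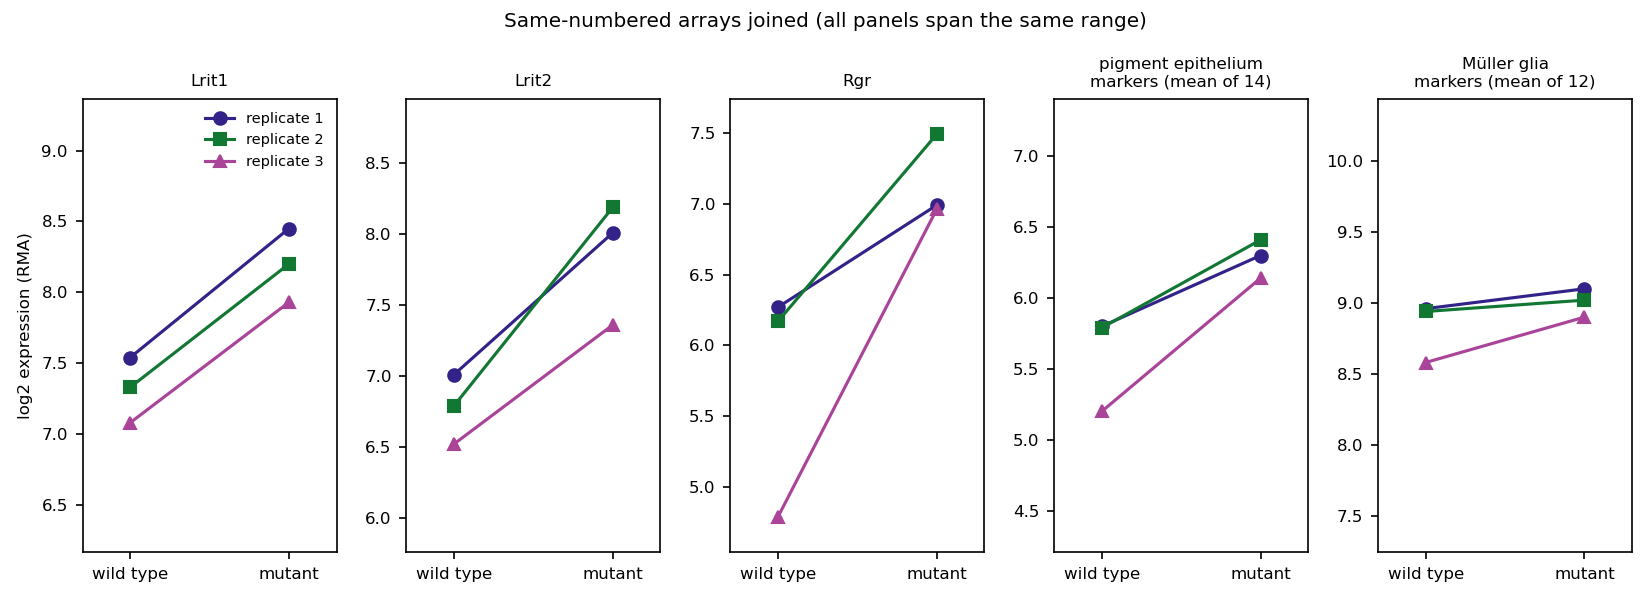
Log2 expression of Lrit1, Lrit2 and Rgr and the mean level of 14 pigment epithelium and 12 Müller glia markers, with same-numbered wild type and mutant arrays joined by a line. The lines of Lrit1 run nearly parallel, and in all 5 panels the wild type value is lowest in replicate 3.

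Within the groups, correlations between member probe sets ran in both directions. After each group's mean was subtracted, Lrit1 and Lrit2 correlated at 0.82 over the 6 arrays, Lrit1 and Rgr at 0.59, and Lrit2 and Rgr at 0.63. These points share the arrays and any difference between pairs of arrays. Of all probe sets, 16% had a correlation with Lrit1 at least as high as that of Lrit2. The corresponding share was 32.5% for Lrit1 with Rgr and 28.3% for Lrit2 with Rgr, so correlations of this size were common on these arrays. On the same scale Cdhr1 correlated with Lrit1 at -0.10, with Lrit2 at -0.07 and with Rgr at 0.70. With Ghitm it correlated at -0.93 at the brighter probe set but at 0.16 at the other. The dim Nrg3 probe sets reached 0.94 and -0.83 with Lrit1, and 0.77 and -0.94 with Lrit2, as large as the correlation of Lrit1 with Lrit2 or close to it. For the Cdhr1 and Nrg3 correlations no share over all probe sets was computed.

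On the other side of Cdhr1 the probe sets did not separate the groups. Ghitm, the next member there, read 9.14, 9.08 and 9.23 in wild type replicates 1 to 3 and 9.22, 9.07 and 8.95 in mutant replicates 1 to 3 at its brighter probe set. The groups overlapped, and the difference was -0.07 (SE 0.10, 95% interval -0.31 to 0.17). The other Ghitm probe set read 7.83, 7.62 and 7.69 in wild type and 7.62, 7.57 and 7.66 in mutant replicates 1 to 3, a difference of -0.09 (SE 0.09, 95% interval -0.31 to 0.13). Both intervals stop short of the size seen at Lrit1 in either direction. Between Cdhr1 and Ghitm lies 2610528A11Rik, not one of the 7 genes, which was dim at 3.44 on average and differed by -0.18 (SE 0.14).

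Nrg3, beyond Ghitm, was dim at both of its probe sets. The first read 3.64, 3.60 and 3.48 in wild type and 3.60, 3.40 and 3.23 in mutant replicates 1 to 3. The second read 2.92, 2.87 and 3.20 in wild type and 2.97, 3.01 and 3.70 in mutant replicates 1 to 3. All these values lay below 4.76, the groups overlapped at both, and the differences had opposite signs, -0.17 (SE 0.12) and 0.23 (SE 0.21). At such levels background limits any difference in Nrg3.

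Ccser2, the member beyond Rgr, had 3 probe sets, which did not vary alike. The brightest read 6.41, 6.04 and 6.60 in wild type and 6.02, 6.07 and 6.45 in mutant replicates 1 to 3, a difference of -0.17 (SE 0.18, 95% interval -0.59 to 0.26). The next read 4.95, 4.88 and 5.12 in wild type and 4.29, 4.68 and 5.87 in mutant replicates 1 to 3, and it differed by -0.03 (SE 0.37). Here mutant replicate 1 was the lowest and mutant replicate 3 the highest of all 6 arrays, so the pairs differed by -0.65, -0.20 and 0.75. The dimmest read 4.47, 4.84 and 4.92 in wild type and 4.85, 4.55 and 4.24 in mutant replicates 1 to 3, a difference of -0.19 (SE 0.19). The groups overlapped at all 3 Ccser2 probe sets. The name of the dimmest ends in _s_at, which marks probes that several transcripts can share.

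Across the 11 probe sets, 1 was called by limma at an adjusted p under 0.05, that of Cdhr1, against a background of 0.0111% of all probe sets. With replicate number as a block it was again 1, against 0.0333%. The groups did not overlap at 4 of the 11, against 7.8% of all probe sets. The genes were proposed with this contrast known, so these counts describe them and nothing more is read from the shares. The spread within groups ranged from a pooled SD of 0.08 at a Ghitm probe set to 0.62 at Rgr, and the median over all probe sets was 0.15.

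The 15 measured genes on each side beyond Ccser2 and Nrg3 had smaller differences than Lrit1, Lrit2 and Rgr. Their differences ran from -0.36 to 0.53, with a median of 0.08, and the median over all genes was 0.02. Of the 30, 14 had a mean below 4.76 (3 on the Ccser2 side and 11 on the Nrg3 side), against 6385 of all 18193 genes. At such levels background limits any difference. Without wild type replicate 3 the neighbours' median was -0.00, with 14 of 30 higher in place of 23, while the share of all genes that were higher moved from 58.4% to 49.4%. Without mutant replicate 3 the neighbours' median was 0.14. Of these 30 genes 0 were called by limma with or without the block, against 0.0165% of all genes at their brightest probe set, and 4 had an unadjusted p under 0.05, against 3.42% of all genes. The groups did not overlap at 9 of the 30, against 8.77% of all genes. The smallest p belonged to Sncg, which encodes gamma-synuclein, a protein of ganglion cells, and it differed by -0.36 (SE 0.10). Next were Gprin2 (0.39, SE 0.12), the neuropeptide receptor gene Npy4r (0.53, SE 0.18) and Dydc2 (0.32, SE 0.11). The genes next to the outer members, 4930474N05Rik and Gm20642, differed by 0.04 (SE 0.12) and -0.13 (SE 0.09).

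**Figure D3:**
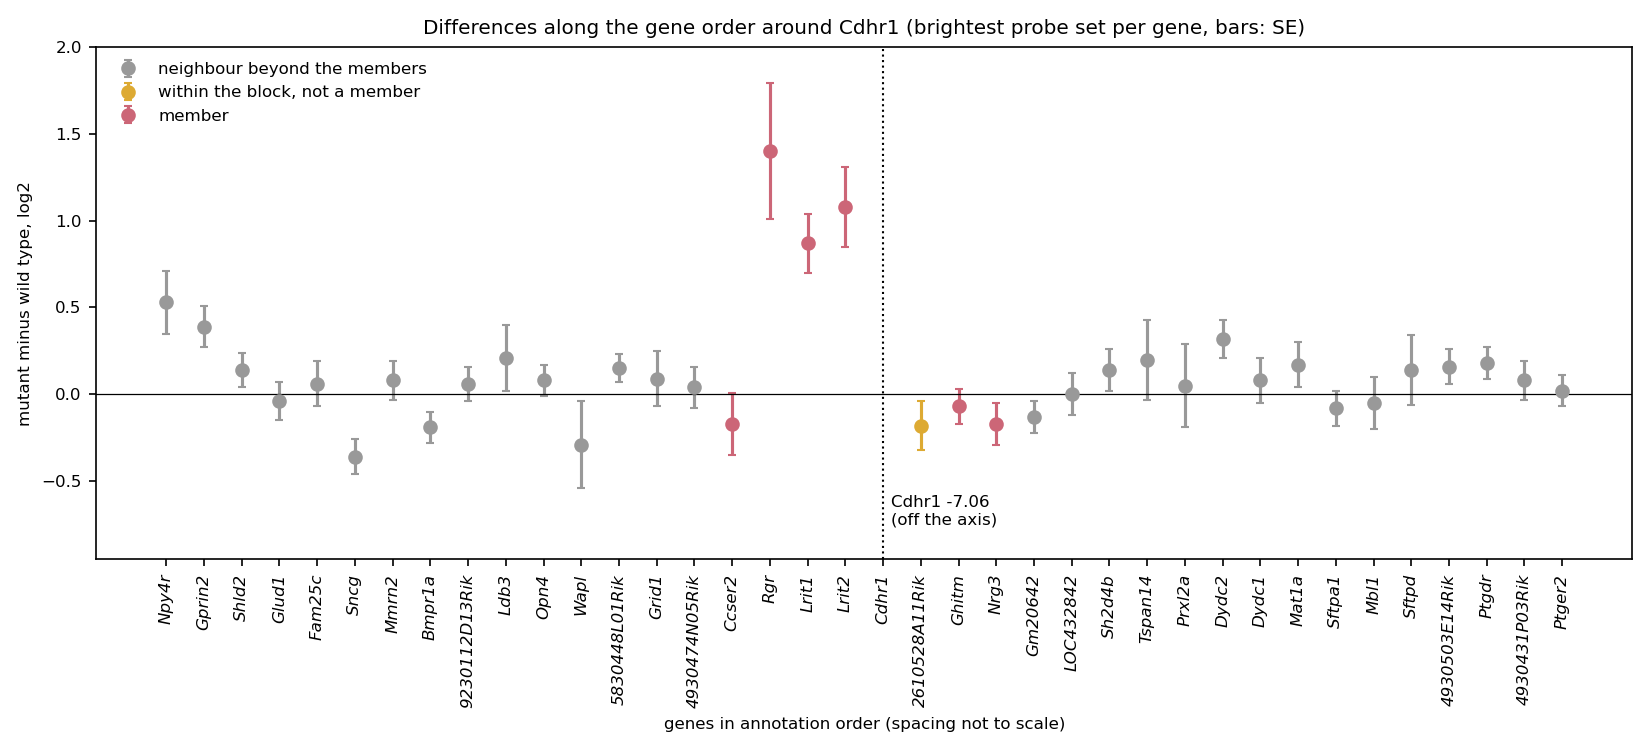
Mutant minus wild type difference in log2 expression (vertical axis, bars are SE) of the genes around Cdhr1 in annotation order, at each gene's brightest probe set. Rgr, Lrit1 and Lrit2 lie at 1.40, 0.87 and 1.08, and all 30 genes beyond the members lie between -0.36 and 0.53, while Cdhr1 is off the axis at -7.06. Of those 30 genes 14 have a mean below 4.76, the median over all probe sets.

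Genes that work with the members were read from lists, each gene at its brightest probe set, and 0 were called by limma in any of the lists, with or without the block. The counts at an unadjusted p under 0.05 below stand against 3.42% of all genes. Among 13 measured genes of photoreceptor disc formation, the setting of prCAD, 2 were higher and 11 lower, while 58.4% of all genes were higher. The median of the 13 was -0.10, or -0.04 without wild type replicate 3, and 0 had an unadjusted p under 0.05. Within same-numbered arrays 1 to 3 their median was 0.05, -0.00 and -0.38, so the third pair alone was clearly lower. Prph2, which shapes the disc rim, differed by -0.73 (SE 0.37) and Rom1, a partner of Prph2, by -0.23 (SE 0.13). The axonemal protein gene Rp1 differed by -0.19 (SE 0.10) at the brightest and by -0.46 (SE 0.11) at the other of its probe sets, and the groups did not overlap at either.

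Among 14 genes of the synapse between photoreceptors and ON bipolar cells, where Lrit1 protein and its relative Lrit3 are studied, the median was 0.02 and 2 had an unadjusted p under 0.05. Trpm1, the ON bipolar channel, differed by 0.59 (SE 0.15) at the brightest of 4 probe sets, and by 0.16, 0.02 and 0.07 at the rest. Rgs11, a regulator of G protein signalling in the same cells, differed by 0.34 (SE 0.10), and Dag1, the dystroglycan gene, by 0.24 (SE 0.12), but by 0.10, -0.01 and 0.00 at its other probe sets.

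Among 11 visual cycle genes, the pathway of Rgr, the median was 0.13 and 3 had an unadjusted p under 0.05. Rdh5, a retinol dehydrogenase of the pigment epithelium, differed by 0.90 (SE 0.28) and the isomerase gene Rpe65 by 1.07 (SE 0.39), and both are also among the pigment epithelium markers. Rdh12, a photoreceptor dehydrogenase, differed by -0.29 (SE 0.12) at the brighter and by -0.35 (SE 0.09) at the dimmer of its probe sets. The 3 measured opsins related to Rgr differed by 0.12 (Rrh, SE 0.30), 0.05 (Opn3, SE 0.11) and 0.08 (Opn4, SE 0.09, and 0.03 at its other probe set), with 0 at an unadjusted p under 0.05. Rrh, like Rgr an opsin of the pigment epithelium, was highest in wild type replicate 1 at 7.48 and its groups overlapped.

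Among 9 neuregulin and ErbB genes the median was 0.03, and among 15 genes of the TMBIM family and the inner mitochondrial membrane, the company of Ghitm, it was -0.01, with 0 at an unadjusted p under 0.05 in either list. Of the 9 neuregulin and ErbB genes 6 had a mean below 4.76, Erbb2, Nrg2 and Erbb3 among them, where background limits any difference. The receptor gene Erbb2 differed by 0.19 (SE 0.10), Nrg2 by 0.11 (SE 0.10; -0.02 and 0.22 at its other probe sets) and Erbb3 by 0.13 (SE 0.13; 0.16 at its other). Mcu, the mitochondrial calcium channel, differed by 0.17 (SE 0.13), but by -0.27 (SE 0.14) at its other probe set. The protease gene Yme1l1 differed by -0.21 (SE 0.17), and by -0.37, -0.28 and 0.10 at its others. Chchd3 differed by -0.09 (SE 0.08), and by -0.40 and -0.19 at its others.

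Over all 6 arrays, the genes whose levels ran most like those of a member were found by Pearson correlation among 19584 other named probe sets brighter than the median. For Lrit1 they were Pbxip1 (r = 0.996), Dnajb11 (0.994) and Coq4 (0.994), and Pbxip1 differed by 0.82 (SE 0.15), with pair differences of 0.89, 0.81 and 0.76. For Lrit2 they were Wdhd1 (0.988), Csf1 (0.987) and Cep89 (0.985). For Rgr they were Myo5b (0.988), Ptgds (0.986) and Ttr (0.985). Ttr is among the pigment epithelium markers, where it was read at another, brighter probe set. For Cdhr1 they were Ube2d-ps (0.982), Ccdc47 (0.979) and Smap1 (0.978), which differed by -0.35, -0.21 and -0.17, small beside the -7.06 of Cdhr1. These correlations span both groups and share the group difference.

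The array medians lay between 4.74 and 4.79, and the number of arrays limits the precision of every value. Wild type replicate 3 had the lowest mean correlation with the other arrays, 0.9780, and the highest was 0.9881. Other marker lists had median differences of 0.15 (Müller glia, 12 genes), 0.03 (cones, 9), -0.04 (ON bipolar cells, 8) and 0.66 (lens, 10), with 2, 2, 1 and 0 genes at an unadjusted p under 0.05, and 1 of the 8 rod markers. Of the 9 cone markers 5 were higher and 4 lower, and 3 were higher without wild type replicate 3. Among them Gnb3 (0.99, SE 0.21) and Pde6c (0.76, SE 0.12) had differences about the size of Lrit1, while Opn1mw differed by -0.31 (SE 0.15). The rod arrestin gene Sag differed by 0.26 (SE 0.09), against the direction of the rod median. Without wild type replicate 3 the medians were 0.08 (Müller glia), -0.13 (cones), -0.11 (ON bipolar cells), 0.21 (lens) and -0.12 (rods). The lens markers differed by 1.61 within the third pair, against 0.07 and 0.18 in the others.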

How the data were processed

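The deposited table holds log2 values made by RMA, whose version the submitters' processing notes leave out. Of 45101 probe sets, 64 manufacturer controls were left out. Gene names came from the platform annotation, which gives 34945 probe sets 1 symbol, 932 several and 9160 none. The GRCm38.p6 gene table gave gene order, and RefSeq's promoter table for that build gave the sequences. The sources used here name no build for the array.

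Groups followed the sample titles. The main test was limma (version 3.58.1, R 4.3.3; lmFit and eBayes) on group alone over 45037 probe sets, with Benjamini-Hochberg adjustment and a threshold of 0.05. Standard errors are from this fit unless the block is named. After subtraction of group means, the arrays numbered 1, 2 and 3 correlated with their counterparts at 0.477, 0.469 and 0.563, so the replicate numbers were taken to pair the arrays, a reading of the data and not of the labels. Figures were drawn with matplotlib 3.10.9.

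The members, lists, alternatives and rule for named genes were set with earlier results of these data known. The rule names all members, the 4 neighbours and the 3 genes per pathway list with the smallest p, and the 3 genes most correlated with Cdhr1, Lrit1, Lrit2 and Rgr. Neighbours named for position, marker genes and further probe sets of named genes were added after their values were seen. Alternatives were the replicate block, leaving out dim or cross-hybridising probe sets, further quantile normalization, median centring, trended and robust eBayes, array weights, averaging a gene's probe sets, leaving out each array and, added after seeing the data, leaving out both replicate 3 arrays.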

Additional observations from a re-analysis of the deposited data

How the results depend on the processing

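Differences of Cdhr1, Lrit1, Lrit2 and Rgr kept their sign under every alternative that was run. Leaving out single arrays moved them between -7.18 and -6.95 (Cdhr1), 0.74 and 1.00 (Lrit1), 0.91 and 1.33 (Lrit2) and 0.92 and 1.66 (Rgr), the last being lowest without wild type replicate 3. Cdhr1 was the 1 member called under each of them, the replicate block (paired fit) included. Not all signs of the small differences were stable. Those of the brightest Ccser2, the dimmer Ghitm and the brighter Nrg3 probe set stayed negative under every alternative that gave a value. Without single arrays or both replicate 3 arrays the Ccser2 probe set of middle brightness ranged from -0.50 to 0.29, the dimmest Ccser2 probe set from -0.35 to 0.05, the brighter Ghitm probe set from -0.14 to 0.03 and the dimmer Nrg3 probe set from -0.01 to 0.36. Over all probe sets 5 were called, but 15 with the replicate block, 25 with array weights, 3 without cross-hybridising probe sets, 16 without both replicate 3 arrays, and 2 to 9 without single arrays: 2 when replicate 1 or 2 of either group was left out, 5 without wild type replicate 3, and 9 without mutant replicate 3. The cause was not tested. Of the 30 neighbours and of the genes in the pathway lists (marker lists were rerun with the block and without wild type replicate 3 alone), 0 were called under each alternative run, and the mean of a gene's probe sets was used for medians only. Leaving out dim probe sets gave no value for either Nrg3 probe set or the dimmest of Ccser2, and leaving out cross-hybridising ones gave none for the latter. Probe sets near or below 4.76, such as those of Nrg3, are limited by background.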
